A study of Bos taurus with 9 samples.

Results

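Ion and water transport for the filling of a lumen was examined through 9 genes, CFTR, SLC12A2, ATP1B1, SCNN1A, SCNN1B, SCNN1G, AQP1, AQP3 and AQP5, each found by its symbol among the 20679 genes of the deposited tables. Fragments of bovine uterine gland, isolated with enzymes from abattoir uteri, were embedded in Matrigel and harvested for RNA-seq on day 5. All fragments received a medium with insulin, transferrin, selenite, ascorbic acid and albumin. The 3 CYST libraries came from fragments without EGF, which formed cysts. The 3 MAT libraries came from fragments with EGF in Matrigel alone, where UG-LIKE structures formed, and the 3 MAT + COL libraries from fragments with EGF in Matrigel with type I collagen. Per the study's methods, EGF was given at 5 ng/ml and collagen I at 0.5 mg/ml. Neither the labels nor the methods state how many animals stand behind a library, so the p-values measure the spread between these libraries.

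A hollow epithelium fills when ions are moved into its lumen and water follows by osmosis. The sodium pump keeps sodium low inside the cell, the cotransporter NKCC1 uses that gradient to load chloride through the basolateral membrane, and the channel CFTR lets chloride and bicarbonate out at the apical membrane. The epithelial sodium channel ENaC works the other way and takes sodium, and with it fluid, back from the lumen, while aquaporins are the water pores through which the water crosses. In the uterus these proteins set the volume and composition of the fluid that glands and luminal epithelium give to the uterine cavity.

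Between 6568968 and 17948600 reads were counted on genes per library, with MAT + COL libraries the deepest as a group (at least 16665013) and the lowest total in a MAT library. Counts are not molecules, since the reads carry no molecular identifiers. The labelled cell type, epithelial cells, was set against markers: all 7 epithelial genes (such as EPCAM and CDH1) exceeded 1 TPM in every library, the deposited level scaled by gene length and depth. Their summed level was 17886.2 to 19223.2 TPM in CYST, 28455.2 to 44413.2 in MAT and 29519.2 to 39515.6 in MAT + COL. KRT8 (7951.6 to 8883.9 TPM in CYST and 13165.6 to 17768.9 in MAT) and KRT19 (7412.7 to 8078.6 and 12475.6 to 23887.4) supplied most of it. EPCAM, CDH1 and CLDN3 were also higher in MAT than in CYST. KRT18 (291.8 to 697.9 and 321.0 to 833.0 TPM) and CLDN4 (672.3 to 1019.4 and 631.9 to 830.3 TPM) overlapped between these groups. The 5 uterine gland genes (FOXA2, PAX8, MUC1, ESR1 and PGR) were each above 1 TPM in at least some libraries, with PGR below it in MAT + COL replicates 1 and 3. They summed to 136.6 to 271.2 TPM in CYST, 478.9 to 615.5 in MAT and 420.6 to 658.4 in MAT + COL. That order was set by MUC1 (48.1 to 209.8, 422.8 to 544.2 and 368.3 to 575.2 TPM), while PAX8 was at 22.0 to 57.7, 23.2 to 46.6 and 30.8 to 50.9 TPM and ESR1 at 17.7 to 35.5, 18.5 to 26.6 and 15.2 to 30.3 TPM. RNA of other cell types was present too. The 8 stromal genes summed to 2224.9 to 4798.4 TPM in CYST, 1190.6 to 3742.2 in MAT and 2196.6 to 4249.1 in MAT + COL. Within that list COL1A1 overlapped between the groups (137.4 to 350.3, 76.7 to 290.2 and 204.3 to 349.0 TPM). VIM was at 238.4 to 312.1, 452.2 to 796.0 and 326.5 to 809.7 TPM. The 5 smooth muscle and pericyte genes summed to 141.9 to 180.8, 38.3 to 84.5 and 71.2 to 91.1 TPM. Of these, TAGLN was at 66.06 to 106.0, 16.15 to 45.05 and 31.49 to 47.5 TPM, and ACTA2 overlapped between cysts and MAT. MYH11 overlapped between all groups (4.78 to 9.94, 6.56 to 10.39 and 7.19 to 11.99 TPM), as did DES and RGS5 at lower levels. The epithelial, gland and smooth muscle sums differed between cysts and the groups with EGF, while the stromal sums overlapped. The part of these cell types in the values below was not tested.

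**Figure D1:**
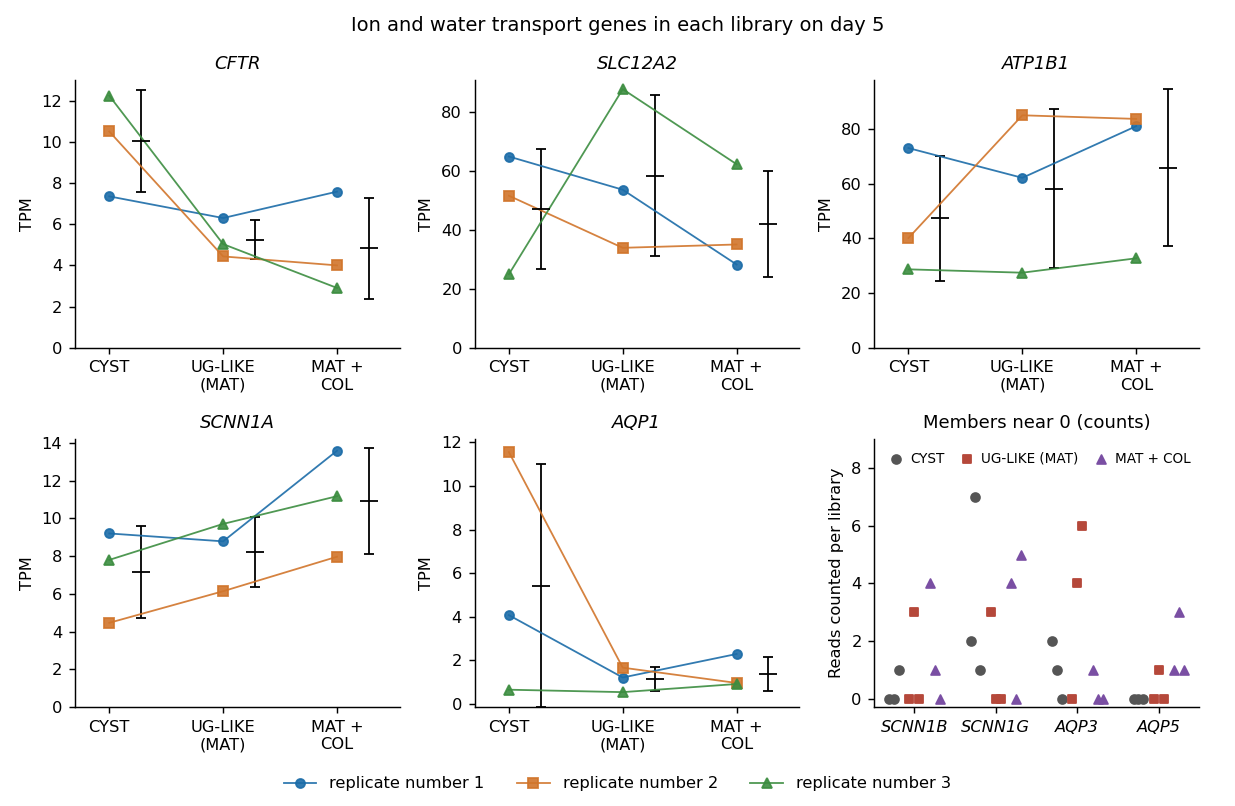
Level of each member in the 9 libraries on day 5. In 5 panels the y axis is TPM, lines join libraries with the same replicate number, and the black bar beside each group is its mean ± SD (n = 3); in the sixth panel the y axis is the number of reads counted in each library for the 4 members near 0. CFTR in the 3 UG-LIKE libraries (4.44 to 6.31 TPM) sits below the 3 cyst libraries (7.36 to 12.3 TPM), while CFTR in MAT + COL overlaps with cysts, as do SLC12A2, ATP1B1, SCNN1A and AQP1 between all groups.

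Of the 9 members, CFTR, SLC12A2, ATP1B1, SCNN1A and AQP1 were expressed at a level that could be tested, and none of these 5 passed the test in any of the 3 comparisons. SLC12A2 and ATP1B1 were the abundant members, with means over the 9 libraries of 49.0 and 57.2 TPM, followed by SCNN1A at 8.76, CFTR at 6.71 and AQP1 at 2.65 TPM. AQP3, AQP5, SCNN1B and SCNN1G were near 0 everywhere, at 0.0240 to 0.136 TPM. The test was edgeR's quasi-likelihood test on the counts of the 6 libraries of a comparison, with Benjamini-Hochberg adjustment over all genes that passed edgeR's filter on low counts, and a gene was called at an adjusted p under 0.05. Between UG-LIKE structures and cysts, 0 of the 5 members were called, where 1.79% of the 12074 genes tested were. Between MAT + COL and cysts, 0 of 5 were called against 1.49% of 12509 genes, and between MAT + COL and MAT, 0 of 5 were called against 0% of 12470 genes. At an unadjusted p under 0.05 by edgeR stood CFTR (0.0144) and AQP1 (0.0430) in UG-LIKE structures against cysts, as did 2496 of the 12074 genes tested. In MAT + COL against cysts CFTR did (0.0173), as did 2709 of 12509 genes. No member did in MAT + COL against MAT, beside 51 of 12470 genes. The median Log2FC of the 5 members tested was 0.17, -0.17 and 0.10 in UG-LIKE against cysts, MAT + COL against cysts and MAT + COL against MAT, beside 0.01, 0.04 and 0.00 over all genes tested. With the replicate number as a block, which pairs libraries of the same number and raised the share of genes called to 10.6%, 5.26% and 0%, the members called were again 0 in each comparison. By the study's criteria for DEGs, which add a Log2FC beyond 1 or -1 and a minimum TPM above 1, read here as that of each of the 6 libraries, 1.45%, 1.13% and 0% of genes were DEGs without the block and 6.01%, 3.46% and 0% with it, and no member was. These shares come from the edgeR fits here and are not the study's own DEG counts.

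CFTR encodes the apical chloride and bicarbonate channel opened by cAMP signals (ENSBTAG00000006589, chromosome 4, positions 50743789 to 50958250, minus strand, on the ARS-UCD2.0 build that all positions here refer to). Its level was 7.36, 10.5 and 12.3 TPM in cyst replicates 1, 2 and 3, and 6.31, 4.44 and 5.04 TPM in the UG-LIKE libraries of the same numbers. In MAT + COL it was 7.59, 4.002 and 2.90 TPM. Every UG-LIKE library was thus below every cyst library, an ordering downward that 10.1% of the genes with any count in this comparison also had, whereas replicate 1 of MAT + COL lay within the range of the cysts. In each group mean, CFTR was 10.1 ± 2.49 TPM in cysts, 5.26 ± 0.954 TPM in UG-LIKE structures and 4.83 ± 2.45 TPM in MAT + COL (SD, n = 3). The Log2FC of UG-LIKE structures against cysts was -0.98 (SE 0.31, 95% confidence interval -1.71 to -0.25), with an adjusted p of 0.133 by edgeR, and that of MAT + COL against cysts was -1.18 (SE 0.39, interval -2.09 to -0.28), with an adjusted p of 0.139. Both comparisons share the cyst libraries. DESeq2 called CFTR lower in MAT + COL than in cysts (adjusted p = 0.0386) and, with the block, in both comparisons (adjusted p = 0.0458 for UG-LIKE structures and 0.0265 for MAT + COL). These DESeq2 fits called 9.06%, 12.5% and 11.8% of all genes tested, in that order. Over all alternatives the adjusted p of CFTR ran from 0.0458 to 0.279 and from 0.0265 to 0.384. Collagen I gave a Log2FC of -0.23 (SE 0.35, interval -1.05 to 0.59, adjusted p = 1 by edgeR), an interval that spans values on both sides of 0. In bulk samples, fewer cells that express a gene and less of its RNA per cell cannot be told apart.

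SLC12A2 encodes NKCC1, the sodium-potassium-chloride cotransporter that loads the cell with chloride for secretion (ENSBTAG00000009637, chromosome 7, positions 25761571 to 25853058, minus strand). It was present at 64.8, 51.5 and 24.9 TPM in the cysts, at 53.5, 33.8 and 87.6 TPM in the UG-LIKE structures and at 28.2, 34.9 and 62.2 TPM in MAT + COL, for replicate numbers 1, 2 and 3 in that order. The direction differed between replicate numbers. In numbers 1 and 2 the UG-LIKE library was below the cyst library, and in number 3 it was above it. The Log2FC was accordingly 0.35 in UG-LIKE structures against cysts, with a standard error of 0.40 and an interval of -0.57 to 1.27 (adjusted p = 0.672, edgeR). For MAT + COL against cysts it was -0.17 (SE 0.40, interval -1.10 to 0.76, adjusted p = 0.853). Without replicate number 3 and with the block, SLC12A2 was at -0.36 in UG-LIKE structures (adjusted p = 0.203, edgeR) and was called lower in MAT + COL, at -0.89 (SE 0.23, adjusted p = 0.0312). These 2 fits called 15.3% and 19.1% of all genes tested. Against MAT, MAT + COL gave -0.55 (SE 0.46, adjusted p = 1), with the lower value in numbers 1 and 3 and a value close to the MAT library in number 2. Pairing narrowed that difference to -0.53 (SE 0.18), with an unadjusted p of 0.0127 that did not survive adjustment (0.955, edgeR with the replicate block).

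The regulators of this cotransporter were measured along with it. WNK1, a kinase at the head of the cascade that responds to cell volume and chloride, was at 26.2 to 33.6 TPM in cysts, 41.9 to 48.4 in UG-LIKE structures and 37.3 to 60.7 in MAT + COL. Its Log2FC was 0.56 (SE 0.15) and 0.63 (SE 0.19) against cysts, with adjusted p of 0.0947 and 0.112 by edgeR, so the cyst libraries lay below all the others, as for 9.97% and 12.5% of genes, without the gene passing the test. OXSR1 and STK39, the kinases that WNK1 activates and that phosphorylate NKCC1, had Log2FC of 0.34 and 0.44 in UG-LIKE structures against cysts, with adjusted p of 0.334 and 0.468. WNK4 stayed at 0.470 to 2.26 TPM in all libraries. SLC12A7, a potassium-chloride cotransporter that carries chloride out of the cell, was at 11.96 to 15.9 TPM in cysts, 18.4 to 26.7 in UG-LIKE structures and 19.7 to 27.4 in MAT + COL, which gave Log2FC of 0.60 and 0.69 and adjusted p of 0.146 and 0.0707 against cysts. SLC12A1, the related NKCC2 best known from the kidney, was at 11.5, 22.1 and 6.82 TPM in cysts against 3.82, 9.29 and 3.76 TPM in MAT + COL. It was lower in all 3 numbered pairs, and it was called lower in MAT + COL only in the fit with the block (Log2FC -1.30, SE 0.25, adjusted p = 0.0437, against 0.195 without the block). Its change in UG-LIKE structures was -1.51, or -1.68 with the block, at adjusted p of 0.239 and 0.0676.

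ATP1B1 encodes the beta-1 subunit that carries the sodium pump to the basolateral membrane (ENSBTAG00000002688, chromosome 16, positions 36758867 to 36784731, plus strand). Cysts had 73.2, 40.2 and 28.7 TPM, UG-LIKE structures 62.2, 85.2 and 27.5 TPM and MAT + COL 81.2, 83.8 and 32.7 TPM. The libraries with replicate number 3 were the lowest of each group, and the groups overlapped throughout. The Log2FC was 0.31 (interval -0.68 to 1.29) in UG-LIKE structures against cysts, 0.42 (interval -0.51 to 1.35) in MAT + COL against cysts and 0.10 (interval -0.94 to 1.14) in MAT + COL against MAT, with adjusted p of 0.742, 0.592 and 1 by edgeR. The annotated gene overlaps NME7 on the opposite strand by 558 bases, and NME7 was itself at 37.1 to 72.6 TPM. With the strand setting of the counting not stated, reads in the overlap cannot be assigned to either.

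By level per length, ATP1B3 and not ATP1B1 was the leading beta subunit. ATP1B3 was at 187.5 to 362.2 TPM, and ATP1B1 made up 11.2% to 21.9% of the summed beta subunit level in cysts, 12.7% to 22.1% in UG-LIKE structures and 11.8% to 21.3% in MAT + COL.

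**Figure D2:**
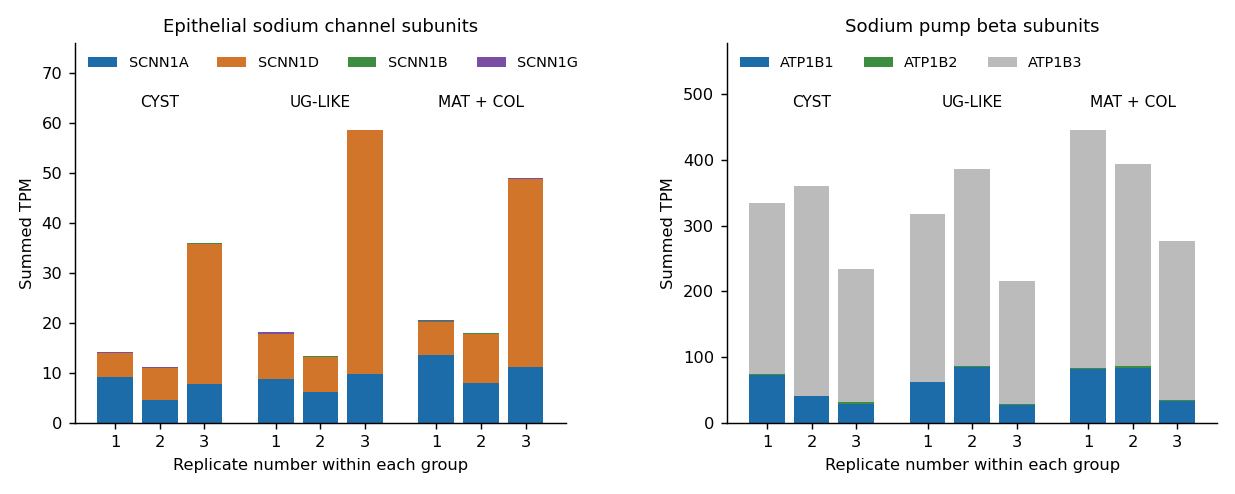
Summed TPM (y axis) of the 4 subunits of the epithelial sodium channel (left) and of the 3 beta subunits of the sodium pump (right) in each library, with libraries ordered by group and replicate number and colours for the subunits. SCNN1D fills 76.8% to 83.4% of the bar in the replicate number 3 libraries and 52.7% to 57.7% in the number 2 libraries. SCNN1B and SCNN1G are hardly visible, and ATP1B3 exceeds ATP1B1 in all 9 libraries.

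SCNN1A, the alpha subunit that ENaC needs to conduct (ENSBTAG00000002631, chromosome 5, positions 103993588 to 104018893, plus strand), was the only subunit of the classic alpha, beta and gamma channel at a measurable level. It had 9.21, 4.47 and 7.80 TPM in cysts and 8.79, 6.15 and 9.71 TPM in UG-LIKE structures. In MAT + COL it had 13.6, 7.97 and 11.2 TPM, the highest value of each replicate number. It was above the cyst library in all 3 numbered pairs, but the difference did not pass the test. The Log2FC of MAT + COL was 0.52 (SE 0.36, interval -0.33 to 1.37, adjusted p = 0.458, edgeR) against cysts and 0.32 (SE 0.30, interval -0.38 to 1.02, adjusted p = 1) against MAT, and that of UG-LIKE structures against cysts was 0.17 (SE 0.39, interval -0.72 to 1.06, adjusted p = 0.845). With the block, the interval against cysts was -0.02 to 1.16 (adjusted p = 0.201).

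The beta and gamma subunits were at the limit of detection. SCNN1B (ENSBTAG00000012290, chromosome 25, positions 20994474 to 21042943, plus strand) had 9 reads over the 9 libraries, at most 4 in any one, and none in 5 libraries. SCNN1G (ENSBTAG00000010163, chromosome 25, positions 20853239 to 20884650, plus strand) had 22 reads, at most 7 in a library, and none in 3 libraries. A count of 0 leaves room for up to 3 counts, or 0.167 to 0.457 CPM (counts scaled to library size) at the depths of these libraries. Neither passed the filter on low counts. In the edgeR fit without that filter, the adjusted p of SCNN1B, SCNN1G, AQP3 and AQP5 ran from 0.417 to 1 over the 3 comparisons, and no fold change is given at these counts. SCNN1B spans 48470 bases in the deposited gene model and 23903 in RefSeq.

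The delta subunit SCNN1D, which can take the place of alpha in the channel, exceeded SCNN1A in all libraries except replicate 1 of CYST and of MAT + COL. It was at 28.1, 48.8 and 37.7 TPM in the replicate number 3 libraries of CYST, MAT and MAT + COL and at 4.81 to 9.89 TPM in the other 6. The high libraries were those of 1 replicate number in every group. Within each replicate number, the UG-LIKE and the MAT + COL library were both above the cyst library. No comparison gave a call for SCNN1D by edgeR (adjusted p of 0.765, 1 and 0.872 in UG-LIKE against cysts, MAT + COL against MAT and MAT + COL against cysts). With the block, its Log2FC was 0.59 (SE 0.23, adjusted p = 0.139) in UG-LIKE structures and 0.43 (SE 0.21, adjusted p = 0.248) in MAT + COL against cysts. SCNN1A therefore made up 16.6% to 66.2% of the summed ENaC subunit level.

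Several proteins that act on ENaC were abundant. SPINT2, a membrane inhibitor of the serine proteases that cleave and activate the channel, was at 887.0, 743.8 and 733.5 TPM in cysts and at 1476.5, 1195.1 and 1318.6 TPM in UG-LIKE structures, with no overlap, as for 9.97% of genes. It was called higher in UG-LIKE structures with the block (Log2FC 0.74, SE 0.16, adjusted p = 0.0307) and not without it (adjusted p = 0.0781). SPINT1, of the same family, was at 78.5 to 106.2 TPM in cysts and 122.3 to 132.1 TPM in UG-LIKE structures, at a Log2FC of 0.46 (adjusted p = 0.208, edgeR). Of the proteases, PRSS8 (prostasin) was at 163.0 to 537.0 TPM in cysts and 294.1 to 360.1 TPM in UG-LIKE structures, and its Log2FC was 0.04. TMPRSS4 had 0.899 to 3.86 TPM in cysts and 6.07 to 13.5 TPM in UG-LIKE structures, and it passed the test with the block (Log2FC 2.27, SE 0.51, adjusted p = 0.0336, against 0.108 without). SGK1, the kinase through which steroid hormones raise ENaC at the membrane, and NEDD4L, the ubiquitin ligase that SGK1 holds back, were at 394.8 to 1452.4 TPM and 40.7 to 67.3 TPM over the 9 libraries. Their Log2FC in UG-LIKE structures against cysts were -0.38 and 0.12, with adjusted p of 0.569 and 0.765. The 3 SGK1 libraries of replicate number 3 were the lowest of their groups.

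AQP1 was the most abundant water channel in 6 of the 9 libraries, though at a low level (ENSBTAG00000000745, chromosome 4, positions 65433648 to 65437310, minus strand). Cysts had 4.07, 11.6 and 0.648 TPM, UG-LIKE structures 1.21, 1.66 and 0.536 TPM and MAT + COL 2.29, 0.958 and 0.909 TPM. The UG-LIKE library was below the cyst library in all 3 numbered pairs, yet the groups overlapped because cyst replicate 3 lay below every library but 1. The Log2FC was -2.17 (SE 0.90, interval -4.26 to -0.09) in UG-LIKE structures against cysts, with an adjusted p of 0.225 by edgeR. In MAT + COL against cysts it was -1.98 (SE 0.88, interval -4.03 to 0.07, adjusted p = 0.247), and in MAT + COL against MAT it was 0.19 (SE 0.65, adjusted p = 1). A single library carried much of the difference. Without cyst replicate 2 the Log2FC was -0.99 in UG-LIKE structures and -0.82 in MAT + COL (adjusted p = 0.657 and 0.676, edgeR). Without replicate number 3 and with the block, AQP1 was called lower in UG-LIKE structures (-2.27, SE 0.55, adjusted p = 0.0290, edgeR), in a fit that called 15.3% of all genes. AQP1 is also a known gene of endothelium and red cells. The 6 endothelial markers, such as PECAM1 and VWF, summed to 13.8 to 23.0 TPM in cysts, 8.60 to 44.3 TPM in UG-LIKE structures and 15.7 to 41.4 TPM in MAT + COL. In cyst replicate 2, where AQP1 was highest, their sum was 13.8 TPM. Of 2 erythroid markers found, HBB was at 0 in every library. ALAS2 was at 3.0, 3.7 and 0 TPM in cyst replicates 1, 2 and 3, at 0 in UG-LIKE structures and at most 0.457 TPM in MAT + COL. The part of these cell types in AQP1 was not tested. The deposited gene model of AQP1 spans 3663 bases against 14199 in RefSeq, and the effect of this on its counts was not tested.

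AQP3 and AQP5, water channels of many secretory epithelia, were barely detected. AQP3 (ENSBTAG00000008493, chromosome 8, positions 75194700 to 75200665, minus strand) had 14 reads over all libraries, with at most 6 in a UG-LIKE library and none in 4 libraries. AQP5 (ENSBTAG00000026813, chromosome 5, positions 29897981 to 29913535, minus strand) had 6 reads, at most 3 in a MAT + COL library, and none in 5 libraries. Its counts in replicates 1, 2 and 3 were 1, 3 and 1 in MAT + COL, 0, 1 and 0 in MAT and 0 in each cyst library. On the TPM scale the MAT + COL libraries were thus above those of MAT and of cysts, an ordering upward that 3.01% and 12.5% of genes had, on at most 3 reads a library. AQP3 and AQP5 did not pass the filter on low counts. The AQP5 model spans 15555 bases against 3871 in RefSeq and covers the neighbouring AQP6, whose reads cannot be told apart from those of AQP5. Summed over the 12 aquaporins found by symbol, the level was 5.34 to 13.1 TPM in cysts, 1.62 to 2.99 TPM in UG-LIKE structures and 2.04 to 3.97 TPM in MAT + COL. AQP1 contributed 10.4% to 88.5% of it in cysts, with the 10.4% in cyst replicate 3. AQP4 and AQP11 reached 3.01 and 2.44 TPM in cysts, AQP11 on at most 16 reads a library. AQP4, the only other aquaporin that could be tested, was at 0.594 to 3.01 TPM in cysts and 0.396 to 0.762 TPM in UG-LIKE structures (Log2FC -1.65, SE 0.78, adjusted p = 0.281, edgeR).

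**Figure D3:**
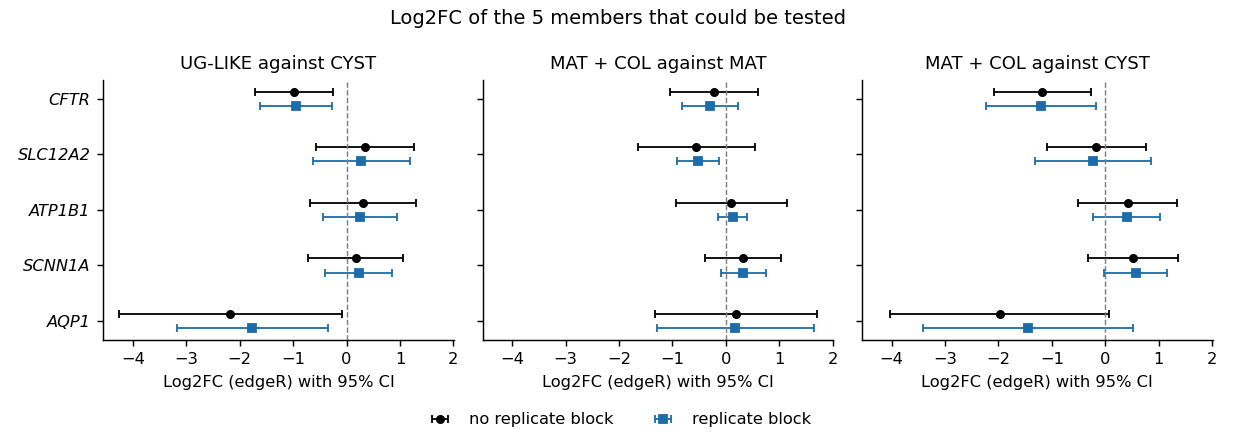
Log2FC by edgeR (x axis) with its 95% confidence interval for the 5 members tested, in 3 comparisons, without (black circles) and with (blue squares) the replicate number as a block. The CFTR intervals in both comparisons with cysts lie below 0, SLC12A2, ATP1B1 and SCNN1A include 0 there, and the block narrows ATP1B1 and SCNN1A most clearly in MAT + COL against MAT.

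How much of the spread went with the group and how much with the replicate number differed among the members. On log2(TPM + 1), 61.9% of the sum of squares of CFTR over the 9 libraries lay between the groups and 4.69% between the replicate numbers. For ATP1B1 the shares were the other way round, at 8.54% and 77.2%, and for SCNN1A they were 35.9% and 58.8%. AQP1 had 33.0% and 34.6%. For SLC12A2 neither took much, with 10.9% and 7.60%, since the change across groups in replicate number 3 opposed that in the others. Over the 11642 genes with a mean of at least 1 TPM the medians were 29.2% and 36.4%. The delta subunit SCNN1D was nearest to a pure replicate number pattern, at 4.83% and 92.8%.

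**Figure D4:**
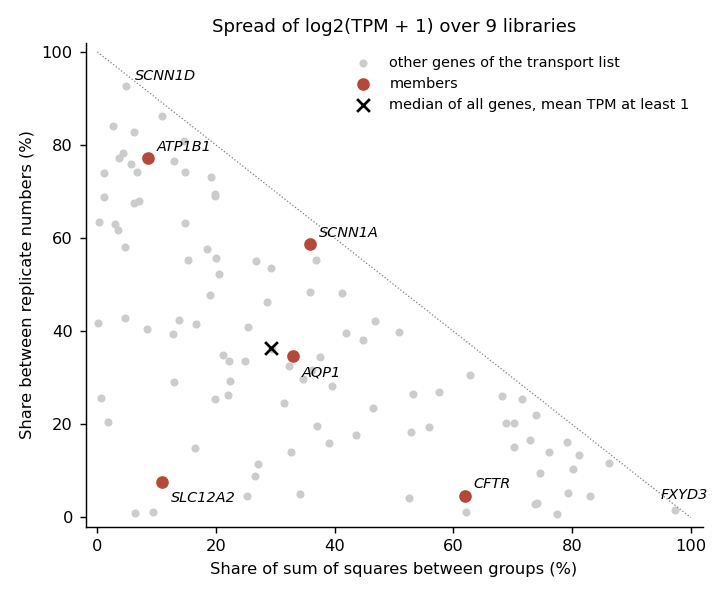
Share of the sum of squares of log2(TPM + 1) over 9 libraries that lies between the 3 groups (x axis, %) and between the 3 replicate numbers (y axis, %), with the 5 members in red, other transport genes in grey and the median of all genes as a cross. CFTR lies to the lower right (61.9% and 4.69%), ATP1B1 to the upper left (8.54% and 77.2%), and FXYD3 at the far right with 97.4% between groups.

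Among the members, Pearson's r of log2(TPM + 1) over the 9 libraries ran from -0.528 (AQP1 with SCNN1A) to 0.459 (CFTR with AQP1), as a description of libraries that share groups and replicate numbers. Of 11200 named genes, those with the pattern most like CFTR were SRP14 (r = 0.958) and MTG1 (r = 0.952). AQP1 was closest to TMEM37 (0.973) and UGDH (0.968), SCNN1A to ARRB1 (0.944) and TCEA3 (0.898), ATP1B1 to FAM53C (0.964) and EHHADH (0.962), and SLC12A2 to RPS2 (0.955) and RPL17_2 (0.946).

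The partners of the members in the same transport pathways were taken from a list of 172 further genes, of which 166 were in the tables. In UG-LIKE structures against cysts, 107 could be tested and 2 of them were called, both higher, beside 0.845% of all genes tested that were called higher. The median Log2FC of the 107 was 0.26, against 0.01 over all genes. FXYD3, a small membrane protein that modulates the sodium pump, rose from 9.25, 8.07 and 7.77 TPM in cysts to 41.6, 34.8 and 29.0 TPM in UG-LIKE structures (Log2FC 2.05, SE 0.31, adjusted p = 0.0301, edgeR). KCNN4, a calcium-activated potassium channel that sustains the driving force for chloride exit, rose from 18.3, 18.9 and 14.1 TPM to 63.3, 35.0 and 86.2 TPM (Log2FC 1.86, SE 0.34, adjusted p = 0.0450). For both genes all UG-LIKE libraries were above all cyst libraries, an ordering upward that 9.97% of the genes with any count also had. FXYD3 lost its call without cyst replicate 1 or 2 or MAT replicate 1 or 2, where its adjusted p by edgeR was 0.0757 to 0.126. Those fits called 0.0562%, 0.0408%, 0.072% and 0.26% of all genes, in that order, against 1.79% with all 6 libraries. KCNN4 lost its call when any library other than MAT replicate 2 was left out (adjusted p from 0.0665 to 0.167, edgeR), in fits that called 0.0408% to 2.14% of all genes. The Log2FC of FXYD3 and KCNN4 stayed within 1.98 to 2.15 and 1.49 to 2.14.

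In MAT + COL against cysts 1 of 112 partners was called, again FXYD3, which was at 32.7, 36.8 and 30.3 TPM (Log2FC 1.93, SE 0.28, adjusted p = 0.0338, edgeR), beside 0.672% of all genes called higher and 0.815% lower. That call was lost when any library other than MAT + COL replicate 3 was left out (adjusted p from 0.0513 to 0.160, edgeR). The fits without it called 0.0234% to 0.877% of all genes, against 1.49% with all 6 libraries. KCNN4 there had 29.9, 20.9 and 100.5 TPM, a wider spread, and an adjusted p of 0.184. None of 113 partners was called between MAT + COL and MAT, where 51 genes in all had an unadjusted p under 0.05 and none an adjusted one, and DESeq2 called 0, or 1 with the block.

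With the block, 14 of the 107 partners passed the test in UG-LIKE structures against cysts, 11 higher and 3 lower, beside 4.90% and 5.67% of all genes. Next to FXYD3, KCNN4, SPINT2 and TMPRSS4, the higher genes included FXYD5, a sodium pump modulator that also affects cell adhesion (Log2FC 1.01, adjusted p = 0.0157). SLC4A4 and SLC4A7, which bring sodium and bicarbonate into the cell, rose by 1.41 and 1.25 on the log2 scale (adjusted p = 0.0302 and 0.0225, edgeR with the block). LRRC8E, a subunit of the volume-regulated anion channel, rose by 0.84 and CA9, a carbonic anhydrase at the cell surface, by 1.64, with adjusted p of 0.0301 and 0.0378. The receptors P2RY2, for extracellular ATP and UTP, and LPAR2, for lysophosphatidic acid, rose by 1.05 and 0.80 (adjusted p = 0.0320 and 0.0464). The 3 lower genes were P2RY1, a receptor for ADP, at -1.72 (adjusted p = 0.0313), PDZK1, a scaffold protein that binds apical transporters such as CFTR, at -1.87 (adjusted p = 0.0438), and CA2, the cytosolic carbonic anhydrase, at -0.71 (adjusted p = 0.0497). Without the block the adjusted p of these 10 genes ran from 0.0540 for SLC4A7 to 0.499 for CA2. In MAT + COL against cysts, 3 of 112 partners passed with the block: FXYD3, FXYD5 (Log2FC 0.83, adjusted p = 0.0419) and SLC12A1, the first 2 higher and the last lower, beside 2.68% and 2.58% of all genes.

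**Figure D5:**
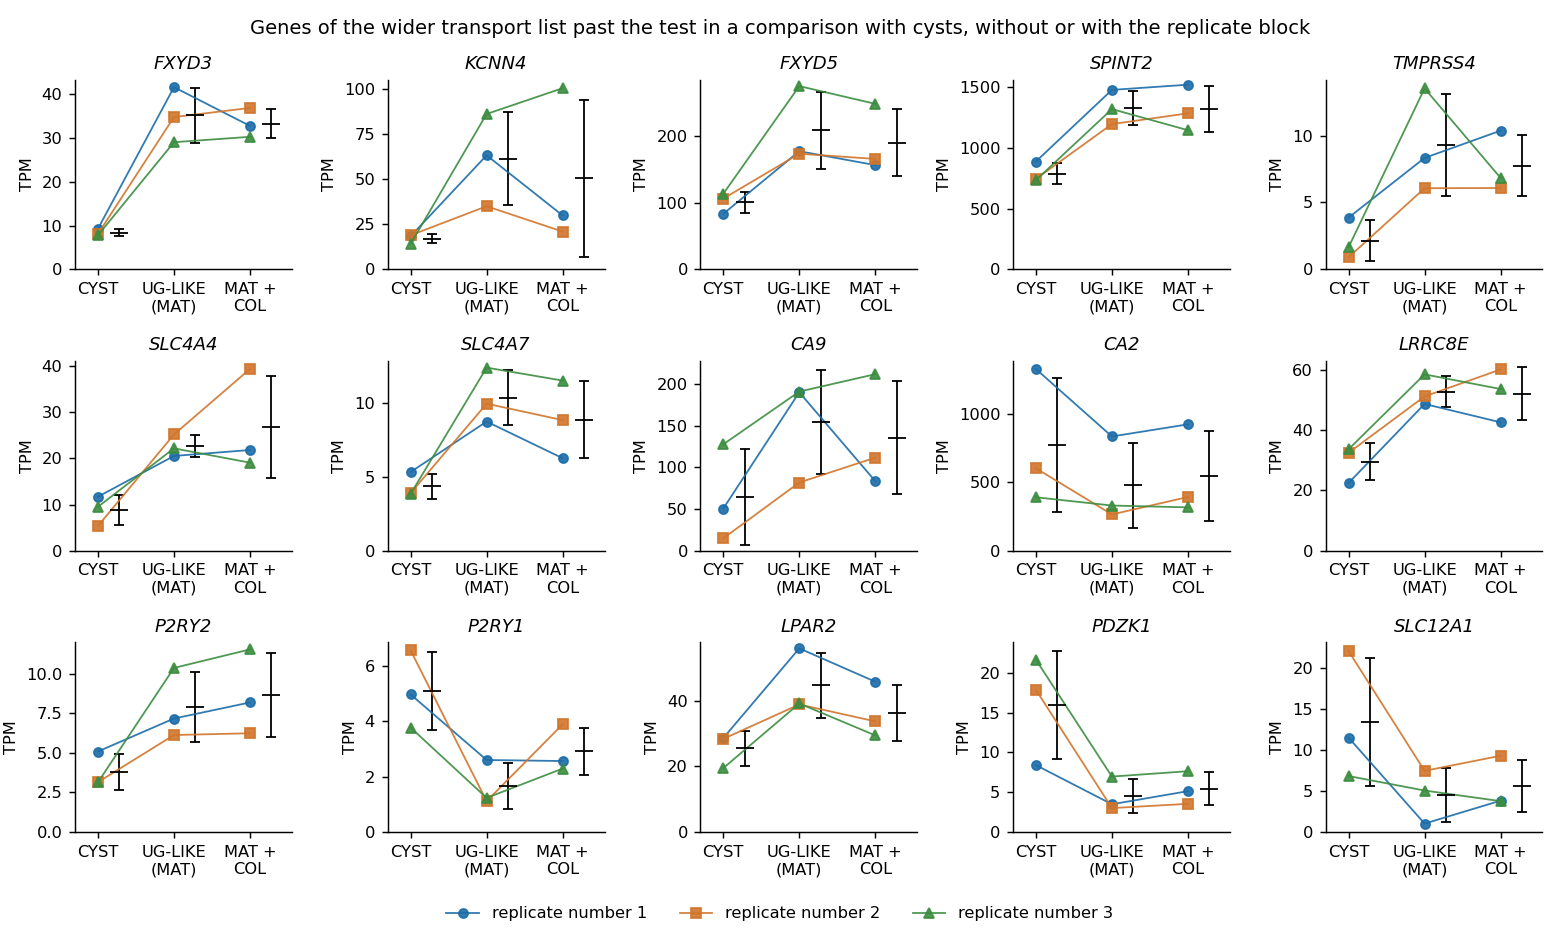
TPM (y axis) in the 9 libraries of the 15 partner genes called in a comparison with cysts without or with the replicate block, with lines joining libraries of the same replicate number and black bars for mean ± SD (n = 3). FXYD3 is at 7.77 to 9.25 TPM in cysts and at 29.0 to 41.6 TPM in the 6 libraries with EGF, and PDZK1, P2RY1, CA2 and SLC12A1 are the genes with lower levels in UG-LIKE structures.

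Among the other routes for anions and potassium, levels ranged widely. CLIC1 and KCNK1, picked after their values were seen, had group means of 1462.5 to 1842.0 TPM and 61.4 to 67.3 TPM. Of the partners named whatever their values, KCNN4 and SLC4A4 are described above, and ANO1, SLC26A9, SLC26A6 and KCNQ1 were low. ANO1, the calcium-activated chloride channel, did not exceed 0.660 TPM, and SLC26A9 was listed at 0 in all cyst libraries and reached 1.95 and 2.18 TPM in replicate number 3 of MAT and MAT + COL. SLC26A6, which exchanges chloride for bicarbonate, was at 3.30 to 6.88 TPM with a Log2FC of 0.09 in UG-LIKE structures against cysts (adjusted p = 0.921, edgeR). The potassium channel KCNQ1, whose partner KCNE3 was not found under that symbol, was at 0.368 to 1.58 TPM in all 9 libraries, at a Log2FC of 0.33 (adjusted p = 0.832).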

How the data were processed

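RNA from 9 cultures (3 each of CYST, MAT and MAT + COL, grouped by the sample labels) was made into SMART-Seq HT PLUS libraries, and the authors aligned trimmed reads to ARS-UCD2.0 in CLC Genomics Workbench with default parameters. The authors deposited counts of reads per gene, not normalized, and TPM, scaled by gene length and depth. The annotation release and strand setting are not given in the sources used here. Totals were 6568968 to 17948600 counts per library.

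Counts were tested in R 4.3.3 with edgeR 4.0.16 (filterByExpr with a minimum count of 10, TMM, glmQLFTest on the 6 libraries of a comparison, Benjamini-Hochberg adjustment over all genes tested, called at 0.05), after the script was tested on simulated data. Standard errors were derived from the F statistic. Alternatives were DESeq2 1.42.0, RLE size factors, no filter, all 9 libraries, limma 3.58.1 on log2(TPM + 1) or log2(TPM + 0.1), the DEG criteria of the study (adjusted p under 0.05, Log2FC beyond 1 or -1, a minimum TPM above 1, read as that of each of the 6 libraries), the replicate block, and leaving out each library. Combinations with the block were added after seeing the data. Floors of 3 counts cover counting error only.

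Replicate numbers come from the labels, and the study describes MAT and MAT + COL libraries as divided mainly by individuals. It states no pairing of the cyst libraries with the others. In the deposited data the libraries also carry numbers that differ in part from these replicate numbers. Deviations from group means correlated between same-numbered libraries at 0.330 to 0.437 (MAT with CYST), 0.471 to 0.687 (MAT + COL with MAT) and 0.278 to 0.350 (MAT + COL with CYST), so the numbers were taken to pair the libraries. The genes named are the 9 members, the partner genes called without or with the block, a set of partners named whatever their values, of which 1 is not reported here, and for each expressed member the 2 genes with the highest r. Members and lists were chosen with earlier results of these data known. Positions are those of the authors' gene models, compared with RefSeq on ARS-UCD2.0. Python 3.11.15 and matplotlib 3.10.9 served for tables and figures.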

Additional observations from a re-analysis of the deposited data

How the results depend on the processing

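With all 6 libraries of a comparison, edgeR called no member without or with the block. Some alternatives called 1 member each. With DESeq2, CFTR was called in UG-LIKE structures against cysts with the block (where 12.5% of all genes were called) and not without it. In MAT + COL against cysts it was called without and with the block (9.06% and 11.8% of all genes). With the block in edgeR and without replicate number 3, AQP1 was called in UG-LIKE structures (15.3% of all genes) and SLC12A2 in MAT + COL (19.1%), both against cysts. Counts of called partners moved more, and so did the share of all genes called, given after each count. In UG-LIKE structures against cysts, the 2 called (1.79% of all genes) became 13 with DESeq2 (7.86%), 5 with all 9 libraries (4.51%), 14 with the block (10.6%), 9 with the block and the DEG criteria (6.01%), 24 with the block and all 9 libraries (16.5%), and 23 with the block and DESeq2 (12.5%). Leaving out 1 library gave 0 to 1 (0.0408% to 2.14%), and leaving out replicate number 1, 2 or 3 with the block gave 0, 4 and 18 (0.289%, 5.11% and 15.3%). In MAT + COL against cysts, the 1 called (1.49%) became 13 with DESeq2 (9.06%), 4 with all 9 libraries (4.67%), 3 with the block (5.26%), 2 with the block and the DEG criteria (3.46%), 18 with the block and all 9 libraries (15.8%) and 21 with the block and DESeq2 (11.8%). Leaving out 1 library gave 0 to 1 (0.0234% to 1.46%), and leaving out replicate number 1, 2 or 3 with the block gave 0, 1 and 21 (0.996%, 0.878% and 19.1%). In MAT + COL against MAT, the block without replicate number 3 gave 2 calls, EZR and KCNN4 (0.368%). KCNN4 was not called in UG-LIKE structures with all 9 libraries (adjusted p = 0.0981, edgeR).

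Directions that turned belonged to values not called. Leaving out 1 library, the Log2FC in UG-LIKE structures against cysts ran from -0.071 to 0.74 for ATP1B1, -0.079 to 0.36 for SCNN1A, -0.11 to 0.67 for SLC12A2, -0.23 to 0.070 for ATP1B3, -0.016 to 0.82 for KCNQ1, -0.27 to 0.96 for PRSS8, -0.87 to 2.07 for SCNN1D and -0.25 to 0.27 for SLC26A6. In MAT + COL against MAT it ran from -0.29 to 0.60 for AQP1, -0.23 to 0.48 for ATP1B1 and -0.63 to 0.014 for CFTR, and in MAT + COL against cysts from -0.64 to 0.10 for SLC12A2. With the block, leaving out replicate number 1 turned SLC12A2 in MAT + COL against cysts to 0.32, AQP1 in MAT + COL against MAT to -0.13, and SLC26A6 in UG-LIKE structures to -0.33. Leaving out number 2 turned ATP1B1 and PRSS8 there to -0.22 and -0.12. Leaving out number 3 turned SLC12A2, ATP1B3 and KCNQ1 there to -0.36, 0.015 and -0.23, and AQP1 in MAT + COL against MAT to -0.061. The cause of these turns was not tested. The members AQP3, AQP5, SCNN1B and SCNN1G had too few reads to pass the filter on low counts, and the part of depth in this was not tested.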

Other observations

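By group of partner genes in UG-LIKE structures against cysts, 3 of 29 anion channels and exchangers tested were called with the block, all higher (SLC4A4, SLC4A7 and LRRC8E), at a median Log2FC of 0.38 beside 0.01 over all genes. Over all genes tested in this fit, 10.6% were called, 4.90% higher and 5.67% lower. Of 19 ENaC partners, proteases and sodium-proton exchangers, 2 were higher (SPINT2 and TMPRSS4) and 1 lower (PDZK1). Of 8 sodium pump subunits and their modulators other than ATP1B1, 2 were higher (FXYD3 and FXYD5), while the median of the 8 was -0.05. Of 5 carbonic anhydrases, CA9 was higher and CA2 lower. Of 23 receptors and other inputs, P2RY2 and LPAR2 were higher and P2RY1 lower. Of 11 potassium channels only KCNN4 was called, and of 11 cotransporters and their kinases none was, at a median of 0.48. Without the block, only FXYD3 and KCNN4 of all these genes were called.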
